A study of Homo sapiens with 12 samples.

Results

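The genes of the T-cell receptor constant regions and of the CD3 complex were examined in HPB-ALL and KOPTK1, 2 cell lines of T-cell acute lymphoblastic leukaemia (T-ALL). The 10 members were chosen by symbol: TRAC, TRBC1, TRBC2, TRDC, TRGC1, PTCRA, CD3D, CD3E, CD3G and CD247. All 10 were found among the 58288 genes of each table, 9 by their Ensembl identifier and TRBC1 by its GRCh38 position. Cells of each line had been infected with pLKO.1 lentivirus that expressed shRNA either to SHQ1 or, as the control, to GFP. By the study's methods they were kept for 48 h and then selected with puromycin at 2 μg/mL for a further 48 h. There were 3 libraries of rRNA-depleted RNA per line and shRNA, 12 in all, in the groups KOPTK1 control shRNA, KOPTK1 SHQ1 shRNA, HPB-ALL control shRNA and HPB-ALL SHQ1 shRNA.

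The T-cell receptor binds antigen through a pair of variable chains, alpha with beta or gamma with delta, whose V and J segments, with D segments in beta and delta, are joined in the thymus and spliced to a constant region. These chains have only short tails inside the cell. Signals are passed on by the CD3 chains and by the zeta chain, whose tails carry tyrosine motifs (ITAMs) that LCK phosphorylates, and a leukaemic T cell often keeps the receptor genes in the state of the thymocyte stage at which it arose.

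The level of a gene was taken from the authors' average over the 6 libraries of a line, with SHQ1 shRNA and control shRNA pooled. It therefore has no standard deviation and no n, and the SHQ1 shRNA groups were not set against the control groups for any member. Levels are given as mean RPKM, that is, the average CPM (reads scaled to a common library total) per kilobase of annotated exon. The tables of the 2 lines were normalized separately, so that every comparison of levels between HPB-ALL and KOPTK1 is a description with no test. With a prior count of 2 assumed in the authors' average, the value shared by all genes without a read implied a mean depth of 41000000 counted reads per library in HPB-ALL and 29900000 in KOPTK1. SHQ1 itself had a pooled level of 59.5 RPKM in HPB-ALL and 43.3 RPKM in KOPTK1.

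The identity of the cells was checked on lists of marker genes. Of 11 T-lineage markers, 4 of them members, 11 reached 1 RPKM in both lines, where 39.9% of all genes did in HPB-ALL and 42.3% in KOPTK1. The T-lineage markers summed to 1218.5 RPKM in HPB-ALL and 1405.5 RPKM in KOPTK1. CD3D was the most abundant of them in each line. Of 7 myeloid markers and 5 natural killer markers, 0 reached 1 RPKM in either line. The 5 erythroid markers summed to 2.92 RPKM in HPB-ALL and 2.83 RPKM in KOPTK1, mostly HBA1, at 2.12 and 1.83 RPKM.

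Of 7 B-lineage markers, 3 reached 1 RPKM in each line. CD79A, the signalling partner of the B-cell receptor, was their most abundant gene, at 43.3 RPKM in HPB-ALL and 16.1 RPKM in KOPTK1. PAX5 and MS4A1, which define the B lineage, were at 0.0198 and 0.0462 RPKM in HPB-ALL and at 0.0191 and 0.0887 RPKM in KOPTK1. Whether cells of another lineage contributed to the levels of the members was not tested.

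Oncogenes that mark T-ALL lines went against the label of HPB-ALL. TLX3, the homeobox gene whose rearrangement HPB-ALL is known for, had an implied mean of 0.333 reads per library in HPB-ALL and 3.33 in KOPTK1. TAL1 was at 42.5 RPKM in HPB-ALL and 19.2 RPKM in KOPTK1. LMO2, rearranged in KOPTK1, was at 0.175 RPKM in HPB-ALL and 1.48 RPKM in KOPTK1. In KOPTK1 40.7% of protein-coding genes lay below LMO2, so that it was not among the abundant genes of that line either. LMO1 was at 3.07 RPKM in HPB-ALL and 1.13 RPKM in KOPTK1. The tables are called by their labels below, but the table labelled HPB-ALL had TLX3 near 0 and TAL1 among its abundant genes. Which line the libraries of either table came from was not tested.

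The range of levels among abundant genes differed between the tables. Among 7266 genes that have a symbol and at least 10 RPKM and 10 CPM in HPB-ALL, 0 fell under 25% of that level in KOPTK1. The lowest share was 28.8%, for CLEC11A, at 58.8 RPKM in HPB-ALL and 16.9 RPKM in KOPTK1. In the reverse direction, 76 of 7264 genes with at least 10 RPKM and 10 CPM in KOPTK1 were under 25% of that level in HPB-ALL, and the lowest share was 1.48%, for PBDC1. For abundant genes the KOPTK1 levels thus stopped at 28.8% of the HPB-ALL level, while HPB-ALL levels did not stop there. Over all 24116 genes with a mean of at least 1 RPKM over both lines, 4 were under 25% of the HPB-ALL level in KOPTK1 and 529 were under 25% of the KOPTK1 level in HPB-ALL. These limits and the genes CLEC11A and PBDC1 were chosen after the values were seen. Whether the KOPTK1 libraries held RNA of the cells sequenced as HPB-ALL was not tested. For TRBC1 and the V segments the KOPTK1 level is therefore given below also as a share of the HPB-ALL level.

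**Figure D1:**
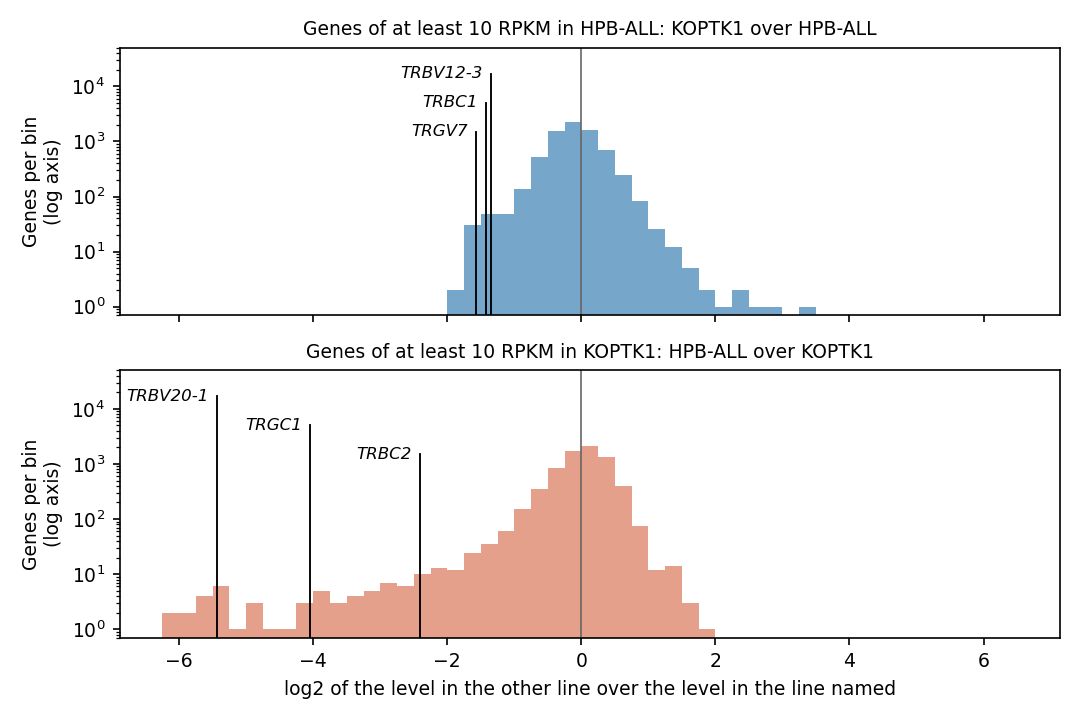
Number of genes per bin of 0.25 on the log2 scale, on a log axis. The upper panel shows the KOPTK1 level over the HPB-ALL level for genes of at least 10 RPKM and 10 CPM in HPB-ALL, and ends at 28.8% on its low side. The lower panel shows the HPB-ALL level over the KOPTK1 level for genes of at least 10 RPKM and 10 CPM in KOPTK1, and reaches 1.48%. Black lines mark receptor genes.

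In both lines, 9 of the 10 members reached 1 RPKM, whereas 39.9% of all genes did so in HPB-ALL and 42.3% in KOPTK1. TRDC was the exception in each line. At a minimum of 10 RPKM, 7 members remained in HPB-ALL and 8 in KOPTK1, beside 14.5% and 14.8% of all genes. The median level of the 10 members was 80.1 RPKM in HPB-ALL and 88.4 RPKM in KOPTK1.

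**Figure D2:**
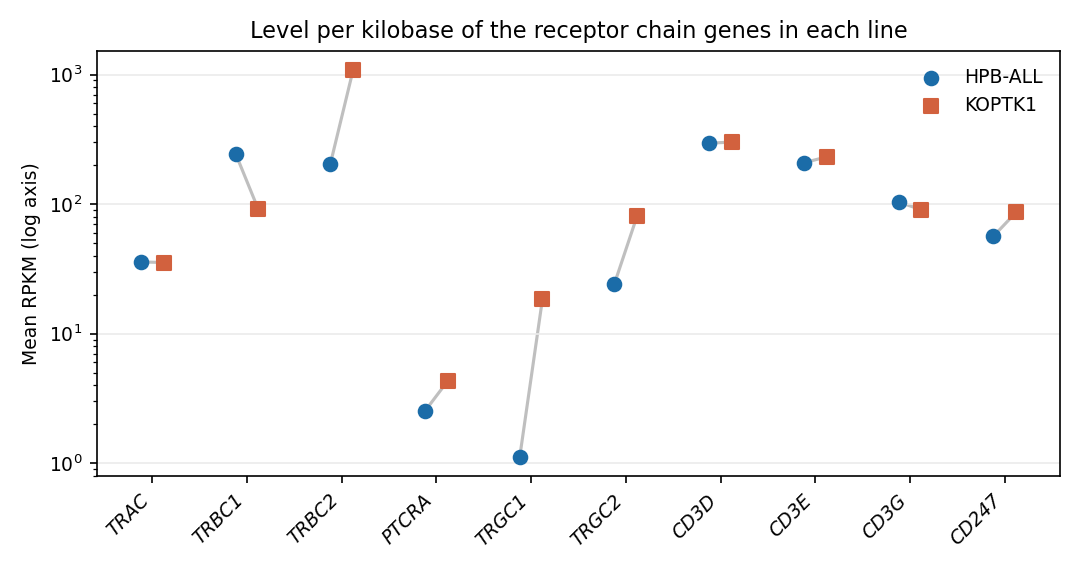
Mean RPKM, on a log axis, of 9 members and of TRGC2 in HPB-ALL (circles) and KOPTK1 (squares), each the authors' average over 6 libraries with no error bar. TRDC is not drawn because it was at or near 0 in both lines. CD3D, CD3E, CD3G and TRAC lie close together between the lines, and TRGC1 lies apart by 16.6-fold.

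Between the lines, 3 of the 9 members with a mean of at least 1 RPKM over both lines were past 2-fold, where 10.2% of the 24116 genes compared were. TRBC1 was the member that was higher in HPB-ALL, against a background of 3.59% in that direction. TRBC2 and TRGC1 were higher in KOPTK1, against a background of 6.63%. The median log2 ratio of HPB-ALL over KOPTK1 was -0.15 over these 9 members and -0.03 over all genes compared. The members spread over a 44.6-fold range of ratios. Within it the 4 CD3 and zeta genes spread over 1.76-fold, from -0.62 to 0.20 on the log2 scale.

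**Figure D3:**
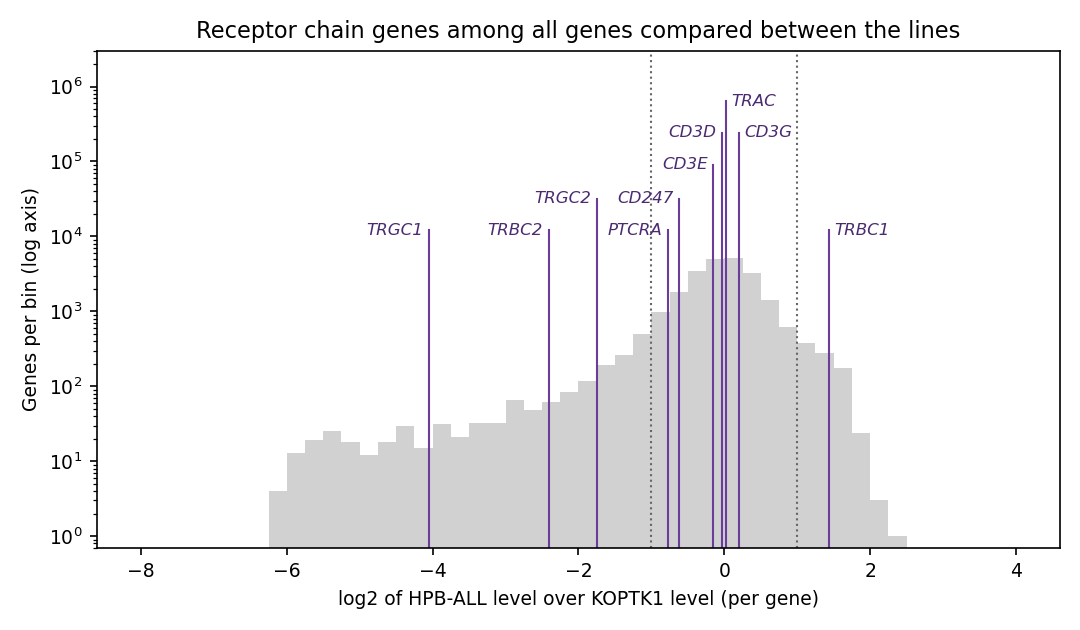
Grey bars give the number of genes per bin, on a log axis, of the log2 ratio of the HPB-ALL level over the KOPTK1 level for the 24116 genes compared. Purple lines mark 9 members and TRGC2, and dotted lines mark 2-fold. TRGC1, TRBC2 and TRGC2 lie to the left of the dotted lines and TRBC1 to the right.

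TRAC encodes the constant region of the alpha chain, downstream of the delta gene TRDC at chr14:22547506-22552154 on the plus strand (GRCh38, as are all coordinates given here). Its level was 35.8 RPKM in HPB-ALL and 35.4 RPKM in KOPTK1, a log2 ratio of 0.02. Centred on the median of the reference genes, the ratio was -0.16, so that no direction can be given. Among 19677 protein-coding genes ranked per length, TRAC would have taken rank 1697 in HPB-ALL and 1603 in KOPTK1. Its neighbours in that order in HPB-ALL were NCAPH and GSPT1. In bulk RNA, fewer cells with a transcript and less transcript per cell cannot be told apart, for TRAC or for any other member.

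The beta chain has a choice of constant genes, each with its own cluster of J segments upstream. TRBC1 lies at chr7:142791694-142793368 and TRBC2 at chr7:142801041-142802748, both on the plus strand, with 9347 bases between their starts. TRBC1 was at 245 RPKM in HPB-ALL and 90.9 RPKM in KOPTK1. TRBC2 was at 204 RPKM in HPB-ALL and 1082 RPKM in KOPTK1, where it would have ranked 11 among protein-coding genes. HPB-ALL thus held both genes at similar levels, and KOPTK1 held mostly TRBC2.

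The log2 ratio of HPB-ALL over KOPTK1 was 1.43 for TRBC1 and -2.41 for TRBC2, that is, TRBC2 was 5.30-fold higher in KOPTK1. The KOPTK1 level of TRBC1 was 37.1% of its HPB-ALL level, where 1% of the 7266 abundant HPB-ALL genes were under 40.7%. With 28.8% of the HPB-ALL level taken from the KOPTK1 level and the rest rescaled, an alternative chosen after the values were seen, TRBC1 was at 28.8 RPKM and TRBC2 at 1437 RPKM in KOPTK1. TRBC1 and TRBC2 are nearly identical in their coding parts, so that reads of 1 gene cannot always be told from reads of the other, and how such reads were assigned was not tested. Summed over both genes, the level was 449 RPKM in HPB-ALL and 1173 RPKM in KOPTK1, 2.61-fold higher in KOPTK1.

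The J clusters gave a second reading of this choice, and were looked at after the levels of TRBC1 and TRBC2 were known. The 6 TRBJ1 rows, upstream of TRBC1, summed to 34.1 CPM in HPB-ALL and 12.6 CPM in KOPTK1. The 8 TRBJ2 rows, between TRBC1 and TRBC2, summed to 30.8 CPM in HPB-ALL and 132 CPM in KOPTK1. The KOPTK1 sum was 37.1% of the HPB-ALL sum for TRBJ1 and 429% for TRBJ2, in the same directions as TRBC1 and TRBC2. TRBJ1-2 was the most abundant of its cluster in both lines, at 11.1 CPM in HPB-ALL and 4.19 CPM in KOPTK1. TRBJ2-1 led the other cluster in both lines, at 10.2 CPM in HPB-ALL and 58.6 CPM in KOPTK1. In HPB-ALL the leading segments of the clusters were thus at similar levels. These segments are shorter than a read, so that their counts cover only part of the transcripts that hold them.

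TRDC, the delta constant gene at chr14:22462932-22465787 on the plus strand, is deleted when an alpha rearrangement is completed on the same chromosome. In HPB-ALL it carried the value of a gene with 0 reads over the 6 libraries, as did 13164 genes. A count of 0 allows a level of up to 0.0169 RPKM, 3 reads over all 6 libraries. In KOPTK1 the TRDC value implied 2 reads over the 6 libraries. These counts leave out the prior count that the levels of the other members include. No fold and no ratio to the gamma genes was formed for TRDC. The 3 TRDV rows likewise carried the value of 0 reads in both lines. The limit covers counting error only.

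The gamma constant genes are TRGC1, at chr7:38257879-38265678 on the minus strand, and TRGC2, which is not a member. Their opening coding stretches are shown for how alike the genes are there. They were read from the GENCODE transcript of each gene, whose first 120 bases are given with the differing bases in capitals:
TRGC1: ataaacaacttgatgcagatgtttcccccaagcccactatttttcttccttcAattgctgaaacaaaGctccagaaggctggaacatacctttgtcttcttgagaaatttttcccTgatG
TRGC2: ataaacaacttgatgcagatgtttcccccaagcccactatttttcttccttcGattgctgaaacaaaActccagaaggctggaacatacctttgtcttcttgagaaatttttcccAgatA
Counted from the first base, the 4 differences from TRGC1 to TRGC2 were A53G, G68A, T116A and G120A. Over the whole transcripts, 11.8% of the 864 windows of 150 bases in TRGC2 occurred unchanged in TRGC1, and 3.95% of those of TRGC1 occurred in TRGC2. A read from such a window cannot be assigned to 1 gene.

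TRGC1 was at 1.12 RPKM in HPB-ALL and 18.6 RPKM in KOPTK1. With a log2 ratio of -4.05, 16.6-fold higher in KOPTK1, it was the member farthest from an equal level. TRGC2 was at 24.3 RPKM in HPB-ALL and 81.4 RPKM in KOPTK1, 3.35-fold higher in KOPTK1. HPB-ALL therefore held TRGC2 with little TRGC1, and KOPTK1 held both with TRGC2 ahead. Summed over both genes, the gamma constant level was 25.4 RPKM in HPB-ALL and 99.97 RPKM in KOPTK1, 3.93-fold higher in KOPTK1. Both lines thus had gamma transcripts beside a TRDC level under 3 reads over the 6 libraries.

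PTCRA, the surrogate alpha chain that pairs with beta before the alpha locus is rearranged, lies at chr6:42915989-42925835 on the plus strand. Its level was 2.53 RPKM in HPB-ALL and 4.32 RPKM in KOPTK1, from an implied mean of 119 and 149 reads per library. The log2 ratio of -0.77 was within 2-fold. PTCRA had the lowest level of the members after TRDC and TRGC1 in HPB-ALL, and after TRDC in KOPTK1. Of the protein-coding genes, 45.8% lay below it in HPB-ALL and 51.6% in KOPTK1. Its ratio to TRAC was 0.0708 in HPB-ALL and 0.122 in KOPTK1, so that TRAC exceeded PTCRA in both lines.

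CD3D, CD3E and CD3G encode the delta, epsilon and gamma chains of CD3, in which epsilon pairs with each of the others. They share a span of 50617 bases on chromosome 11, with CD3E at chr11:118304545-118316175 on the plus strand, CD3D at chr11:118338954-118342744 on the minus strand and CD3G at chr11:118344344-118355161 on the plus strand. CD3D and CD3G start 1600 bases apart and are read in opposite directions. CD247, the zeta chain, lies alone at chr1:167430640-167518610 on the minus strand.

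What sets these chains apart from the receptor chains is the ITAM, and its coding sequence is shown for each copy found. The coding parts of the GENCODE canonical transcripts were searched for a tyrosine codon, any 2 codons, a leucine or isoleucine codon, 6 to 8 codons, and the same run of 4 codons again. CD3D, CD3E and CD3G held 1 match each, CD247 held 3 and PTCRA held 0. Capitals mark the tyrosine and the leucine or isoleucine codons, and numbers after CD247 give the order of the copies:
CD3D: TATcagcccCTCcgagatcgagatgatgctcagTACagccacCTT
CD3E: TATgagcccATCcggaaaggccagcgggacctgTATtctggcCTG
CD3G: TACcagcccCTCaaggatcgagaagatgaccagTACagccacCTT
CD247, copy 1: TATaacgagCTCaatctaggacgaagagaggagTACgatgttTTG
CD247, copy 2: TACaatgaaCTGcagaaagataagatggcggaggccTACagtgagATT
CD247, copy 3: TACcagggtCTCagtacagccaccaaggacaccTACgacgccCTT
The stretches of CD3D and CD3G shared 38 of 45 bases, and that of CD3E shared 23 of 45 with either. Copies 1 and 3 of CD247 shared 21 of 45. A match is a description of the sequence and was not measured in these cells.

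CD3D was the most abundant member in HPB-ALL, at 295 RPKM, with the glutathione transferase gene GSTP1 above it and the ribosomal protein gene RPS16 below it. In KOPTK1 CD3D was at 301 RPKM, between H2AC20 and DDX5. It ranked 61 among protein-coding genes in HPB-ALL and 62 in KOPTK1. Its log2 ratio of -0.03 took the other sign on the TPM scale, at 0.03, and centred on the median of the genes compared, at 0.005.

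CD3E was at 209 RPKM in HPB-ALL and 231 RPKM in KOPTK1, a log2 ratio of -0.15. CD3G was at 104 RPKM in HPB-ALL and 90.5 RPKM in KOPTK1, a log2 ratio of 0.20. Per length the order was CD3D, CD3E, CD3G in both lines, whereas in CPM, without division by length, CD3E led in both and CD3D and CD3G changed places between the lines. The summed level of the 3 genes was 608 RPKM in HPB-ALL and 623 RPKM in KOPTK1. CD247 was lower than all 3 in each line, at 56.4 RPKM in HPB-ALL and 86.3 RPKM in KOPTK1. Its log2 ratio of -0.62 was the widest of the signalling chains, and was within 2-fold.

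Ratios inside a table do not depend on how that table was scaled. CD3D exceeded CD3G 2.84-fold in HPB-ALL and 3.33-fold in KOPTK1 per length. CD3E amounted to 0.523 of CD3D and CD3G together in HPB-ALL and 0.591 in KOPTK1. CD247 amounted to 0.270 of CD3E in HPB-ALL and 0.373 in KOPTK1. The CD3 ratios thus differed by 1.17-fold for CD3D over CD3G and by 1.13-fold for CD3E over its partners. Without division by length CD3D over CD3G was 0.910 in HPB-ALL and 1.06 in KOPTK1, because the CD3G model, with 2690 bases of exon, is longer than that of CD3D, with 861.

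TRAC stood further from its partner. TRAC amounted to 0.0797 of TRBC1 and TRBC2 together in HPB-ALL and 0.0302 in KOPTK1. In each line the beta constant genes therefore exceeded the alpha constant gene per length, by a wider margin in KOPTK1. The level of TRAC was also below that of each CD3 chain in both lines.

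V segments are spliced to the constant genes once they are rearranged, although a segment that is not rearranged can be transcribed too. They were ranked per length within each line, over 54 alpha, 69 beta, 14 gamma and 3 delta rows. TRAV8-4 led the alpha segments in HPB-ALL, at 43.7 RPKM, and was the alpha segment that reached 10 RPKM there. In KOPTK1 TRAV1-1 led at 18.2 RPKM, followed by TRAV8-4 at 15.8 RPKM, and TRAV1-1 was at 0.280 RPKM in HPB-ALL. The KOPTK1 table thus had 2 alpha segments of similar level, 1 of them the leading segment of HPB-ALL.

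TRBV12-3 led the beta segments in HPB-ALL, at 104 RPKM, and was at 40.9 RPKM in KOPTK1. TRBV20-1 led in KOPTK1, at 846 RPKM, and was at 19.6 RPKM in HPB-ALL. It was followed in KOPTK1 by TRBV10-3, at 108 RPKM, which was at 2.70 RPKM in HPB-ALL. The levels of TRBV12-3 in HPB-ALL and TRBV20-1 in KOPTK1 were in the same order as the constant gene totals of the lines.

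TRGV7 led the gamma segments in HPB-ALL, at 28.9 RPKM, followed by TRGV8 at 20.2 RPKM, and TRGV2 led in KOPTK1, at 80.7 RPKM. The KOPTK1 level of the segment that led in HPB-ALL was 36.0% of the HPB-ALL level for TRAV8-4, 39.1% for TRBV12-3 and 33.8% for TRGV7. Those shares lay beside the 37.1% of TRBC1. Segments ranked lower in HPB-ALL spread wider, at 35.6% for TRAV18, 26.7% for TRAV19, 43.5% for TRBV12-4, 31.8% for TRGV8 and 32.2% for TRGV3. TRAV19, at 3.39 RPKM in HPB-ALL, was not among the abundant genes whose lowest share was 28.8%. The same share was 37.3% for CD79A, 35.2% for BLK and 37.7% for EBF1, the 3 B-lineage markers that were at or above 1 RPKM in HPB-ALL. In the other direction, the HPB-ALL level was 1 part in 43.3 of the KOPTK1 level for TRBV20-1 and 1 part in 5.80 for TRGV2. For TRAV1-1, with an implied mean of 2.5 reads per library in HPB-ALL, it was 1 part in 65.1 with the prior count and 1 part in 116 without it, a setting chosen after the values were seen. TRAV8-4, TRBV12-3 and TRBJ1-2 are also known as the receptor segments of Jurkat, another T-ALL line, which expresses TAL1. The J levels in HPB-ALL did not single out TRBJ1-2, at 11.1 CPM beside 10.2 CPM for TRBJ2-1. The study's methods state that its lines had been authenticated by a PCR assay of tandem repeats, and whether Jurkat cells were sequenced under either label was not tested.

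**Figure D4:**
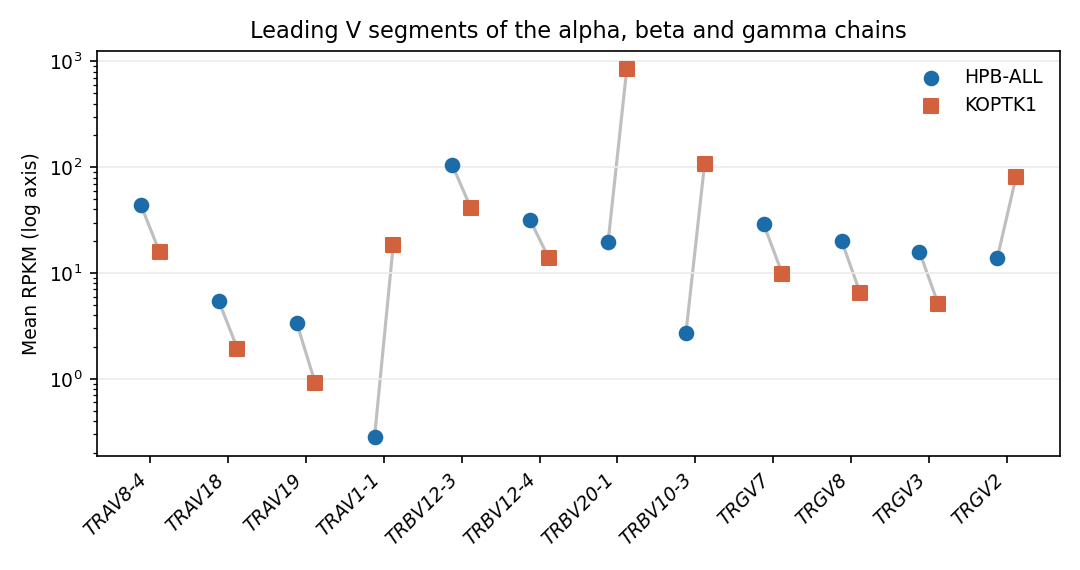
Mean RPKM, on a log axis, of the 3 highest V segments of the alpha, beta and gamma chains in either line, in HPB-ALL (circles) and KOPTK1 (squares). TRAV8-4, TRBV12-3 and TRGV7 lead in HPB-ALL and keep 33.8% to 39.1% of that level in KOPTK1, whereas TRAV1-1, TRBV20-1 and TRGV2 lead in KOPTK1 and are lower in HPB-ALL, by 43.3-fold for TRBV20-1, 5.80-fold for TRGV2 and, with the prior count, 65.1-fold for TRAV1-1 (116-fold without it).

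The genes of the rearrangement machinery were expressed in both lines. RAG1 and RAG2 cut the receptor loci. RAG1 was at 2.13 RPKM in HPB-ALL and 9.55 RPKM in KOPTK1, and RAG2, at 2.81 RPKM in HPB-ALL, had a log2 ratio of -0.51. DNTT, which adds bases at the joints, was at 11.9 RPKM in HPB-ALL and 57.4 RPKM in KOPTK1. Of these 3 genes, RAG1 and DNTT were past 2-fold, both higher in KOPTK1, as were 6.63% of all genes compared.

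Of the kinases, adapters, phosphatases and other proteins that act close to the receptor, 21 of 22 reached 1 RPKM in HPB-ALL and 22 of 22 in KOPTK1. Of these 22 genes of proximal signalling, 21 had a mean of at least 1 RPKM over both lines, and 1 of these, PAG1, was past 2-fold, at 7.80 RPKM in HPB-ALL and 17.5 RPKM in KOPTK1, where 10.2% of all genes compared were. LCK, which phosphorylates the ITAMs of CD3D, CD3E, CD3G and CD247, was at 224 RPKM in HPB-ALL and 186 RPKM in KOPTK1. ZAP70, which binds the phosphorylated ITAMs, was at 151 and 83.6 RPKM, and the adapter LAT at 34.4 and 66.8 RPKM, 1.94-fold apart. The median log2 ratio of the list was -0.17.

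The coreceptors gave a different picture. CD4 was at 0.939 RPKM in HPB-ALL and 0.631 RPKM in KOPTK1, and CD8B at 1.47 and 1.38 RPKM. CD8A was at 0.968 RPKM in HPB-ALL and 5.47 RPKM in KOPTK1. Levels of CD3D, CD3E and CD3G above 90 RPKM thus stood beside coreceptor levels under 6 RPKM. Of the 10 coreceptors and costimulators, 8 were compared. CD8A, CD2 and ICOS, 3 of these, were past 2-fold and higher in KOPTK1, as were 6.63% of all genes compared. CD8A and ICOS, at 0.968 and 0.981 RPKM in HPB-ALL, passed the minimum of 1 RPKM only through KOPTK1, where ICOS was at 9.18 RPKM. CD2 was above it in both lines, at 13.7 RPKM in HPB-ALL and 47.8 RPKM in KOPTK1.

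Genes for the assembly and retention of the receptor, such as the chaperones CANX and CALR, were within 2-fold in 6 of 6 cases, near the 89.8% of all genes compared, with a median log2 ratio of 0.37. TRAT1, which stabilises the receptor complex, was at 23.5 RPKM in HPB-ALL and 31.0 RPKM in KOPTK1. Of the adapters that can replace the zeta chain or serve other receptors, FCER1G was at 0.876 and 0.333 RPKM and TYROBP at 0.352 and 0.270 RPKM, far under CD247. HCST was at 12.6 RPKM in HPB-ALL and 8.76 RPKM in KOPTK1.

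Transcription factors known to act at the receptor and CD3 loci were within 2-fold between the lines in 11 of 11 cases, again near the 89.8% of all genes compared, with a median log2 ratio of -0.21. LEF1 was at 193 RPKM in HPB-ALL and 195 RPKM in KOPTK1, and TCF7 at 144 and 267 RPKM. BCL11B, required for commitment to the T lineage, was at 58.3 and 82.1 RPKM. The 9 reference genes were within 2-fold in 9 of 9 cases, with a median log2 ratio of 0.18. Of 11 line-marking oncogenes 2 were compared, LMO1 and TAL1, and both were past 2-fold and higher in HPB-ALL, as were 3.59% of all genes compared. LMO2 was at 0.175 RPKM in HPB-ALL and 1.48 RPKM in KOPTK1. Its mean over both lines was under 1 RPKM, so that it was not among the genes compared. It was 8.45-fold higher in KOPTK1, from an implied mean of 15.3 reads per library in HPB-ALL and 105 in KOPTK1.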

How the data were processed

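RNA-Seq was performed on 12 libraries, 3 per line and shRNA, grouped by their titles. According to the submitters' processing notes, the authors used Trimmomatic 0.36, STAR 2.5.4b, Picard 2.18.7, featureCounts 1.6.2 and edgeR 3.22.3 with the build hg38. The study's methods differ, and name Bowtie2 and the build hg19 for its analysis of splicing and mature mRNA. The authors deposited 1 table per line, normalized separately. The deposited average log2 CPM over the 6 libraries of a line and the deposited summed exon length of each gene were used. The authors' own comparison columns (fold change, F statistic, p-value and FDR) were not used. The 12 per-library columns are headed only by numbers that match no label and were not used in any step, so that the depth and spread of single libraries are not given and the planned tests of SHQ1 shRNA were not run.

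The average log2 CPM was taken off the log scale and divided by the length in kilobases to give a mean RPKM. It includes the small prior count of the authors' average. Of 19112 protein-coding genes, 99.85% overlapped their GRCh38 position and 15.2% their GRCh37 position. Symbols were given to 95.9% of the rows through GENCODE release 44. TRBC1 and 14 TRBV rows, which had none, were matched by a shared first or last base with RefSeq (GRCh38.p14). Genes with a mean of at least 1 RPKM over both lines were compared, and 2-fold was the threshold. The named genes were the members, TRGC2, the lists printed, the leading V segments and the protein-coding genes next to CD3D and TRAC in level, of which those next to TRAC in KOPTK1 are not reported here. The members and lists were chosen with earlier results of these data known. Alternatives were the TPM scale, other minimums and folds, centring, a protein-coding background and no division by length. Coding sequences were read from GENCODE transcripts by name. Python 3.11.15, numpy 2.4.6, pandas 2.3.3 and matplotlib 3.10.9 were used. The arithmetic of the ratios and of the 2-fold threshold was checked on simulated levels with set ratios, and the other steps were not.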

Additional observations from a re-analysis of the deposited data

How the results depend on the processing

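No paired analysis was possible because no column of a single library matches a label. For the same reason the other settings of the SHQ1 shRNA tests gave no value, and no replicate was left out. On the TPM scale the median level of the members was 215 in HPB-ALL and 228 in KOPTK1. The median log2 ratio of HPB-ALL over KOPTK1, -0.15 over the members compared, was -0.12 centred on the genes compared, -0.33 centred on the reference genes (a shift of 0.178), -0.09 on the TPM scale and -0.028 at a minimum of 10 RPKM. Under 2 alternatives chosen after seeing the data it was -0.38 with TRBC1 and TRBC2 summed and -0.21 with 28.8% of the HPB-ALL level taken from KOPTK1. That share was the smallest among genes of at least 10 RPKM and 10 CPM in HPB-ALL, not among all genes compared. The number of members past the threshold was 3, and became 5 at 1.5-fold and 2 at a minimum of 10 RPKM, at 4-fold and with TRBC1 and TRBC2 summed. All genes past the threshold came to 3.85% at a minimum of 10 RPKM, 24.3% at 1.5-fold and 2.21% at 4-fold, as a different minimum or fold must shift them. Each of the 3 scalings moves all genes by 1 constant, and it turned the sign of TRAC or CD3D, which lie near 0. With 28.8% of the HPB-ALL level taken from KOPTK1, 9 of 9 members kept their sign and their side of 2-fold.

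Without division by length the ratios in HPB-ALL and KOPTK1 were 0.103 and 0.0388 for TRAC over TRBC1 and TRBC2, 0.910 and 1.06 for CD3D over CD3G, 0.605 and 0.712 for CD3E over CD3D and CD3G, 0.293 and 0.405 for CD247 over CD3E, and 0.0847 and 0.146 for PTCRA over TRAC. For CD3D over CD3G in HPB-ALL this put CD3G ahead, by the lengths of the gene models. Depth limits TRDC and the TRDV segments, which had at most 2 implied reads over the 6 libraries.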
